A study of Mus musculus with 7 samples.

Results

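Integrins and the P-selectin ligand are the surface proteins by which blood stem and progenitor cells hold on to the bone marrow. Here 10 of their genes were followed in the deposited mouse expression table: the integrin alpha subunits Itga4, Itga5, Itga6, Itga9, Itgal and Itgam, the beta subunits Itgb1, Itgb2 and Itgb7, and Selplg, which encodes P-selectin glycoprotein ligand-1 (PSGL-1). Members were taken by symbol, from a set chosen with earlier results of these data known. All 10 were found among the 39179 gene IDs of the table, and all 10 were among the 12813 genes tested. LSK cells, a marrow fraction sorted as lacking lineage markers and carrying Sca-1 and Kit, came from C57/BL6 mice 7 weeks old. The 4 control libraries came from Vav1Cre mice, and the 3 Jmjd1c libraries from Jmjd1c f/f Vav1Cre mice, so all groups carry a Cre that the Vav1 promoter drives in blood cells, and the floxed Jmjd1c allele is named for the Jmjd1c group alone. The comparison asks how loss of Jmjd1c, a KDM3 family protein of the histone H3 lysine 9 demethylases, bears on normal blood formation. The labels do not say that each library is a separate mouse, so p-values measure only how far these libraries spread, a spread that may be technical.

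An integrin is a pair of membrane-spanning chains, 1 alpha and 1 beta, and the pairing sets the ligand. Chains with beta1 bind fibronectin, laminin and VCAM-1 in the marrow matrix and stroma, and alpha4 can also pair with beta7, which binds MAdCAM-1 of gut vessels. Chains with beta2 are confined to leukocytes and bind ICAM-family molecules. PSGL-1 is a mucin that rolls on P-, E- and L-selectin once its sugars and tyrosines have been modified.

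Values are normalized read counts, the deposited signal. They were taken to be each library's reads divided by 1 size factor, because they are whole multiples of the smallest value in each library. No header states it. Recovered reads in genes ranged from 4303712 to 6436519 per library. The targeted gene was lower in the libraries labelled Jmjd1c: Jmjd1c was at 293.8, 244.2 and 253.6 in Jmjd1c 1 to 3 against 458.4 to 516.3 in the controls (two-sided exact permutation p = 0.0286, the smallest that 35 splits allow). The sorted-cell markers Kit (4778 to 7268) and Ly6a, which encodes Sca-1 (693.6 to 914.7), were present in all 7 libraries, while Cd3e, of T cells, was near 0 (0 to 12 recovered reads). Transcripts of neutrophil genes were present, among them S100a8 (2204 to 4651) and Ngp (2002 to 3925), although Ly6g was near 0 (0 to 1 recovered reads). Retnlg, of the same marker list, was low (5 to 16 recovered reads). How mature the cells with these transcripts were was not tested. The summed level of 10 macrophage and monocyte genes was 13492 in control 4, well above the other controls (3652 to 5236) and the Jmjd1c group (3209 to 5392), so control 4 stood apart in this sum.

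No member passed the threshold of an adjusted p of 0.05 in limma, on log2(value + 1) with Benjamini-Hochberg adjustment over all 12813 tested genes, of which 1.8% passed. At an unadjusted p under 0.05 there were 7 of the 10 members, 6 higher and 1 lower in Jmjd1c, against 19.7% of all tested genes (11.9% higher). In 4 members, Itga5, Itgb1, Itgal and Selplg, every Jmjd1c library lay above every control library, as did 9.74% of all tested genes, and in 0 members did every one lie below, as in 7.1% of tested genes. The median log2 fold change of the members was 0.21, beside -0.01 over all tested genes. edgeR's quasi-likelihood test on the recovered reads called 0 members (1.82% of all genes), and DESeq2 called Itga5 and Selplg (5.21% of the genes it gave an adjusted p). Fewer cells of a type and less RNA per cell cannot be told apart in these bulk libraries.

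**Figure D1:**
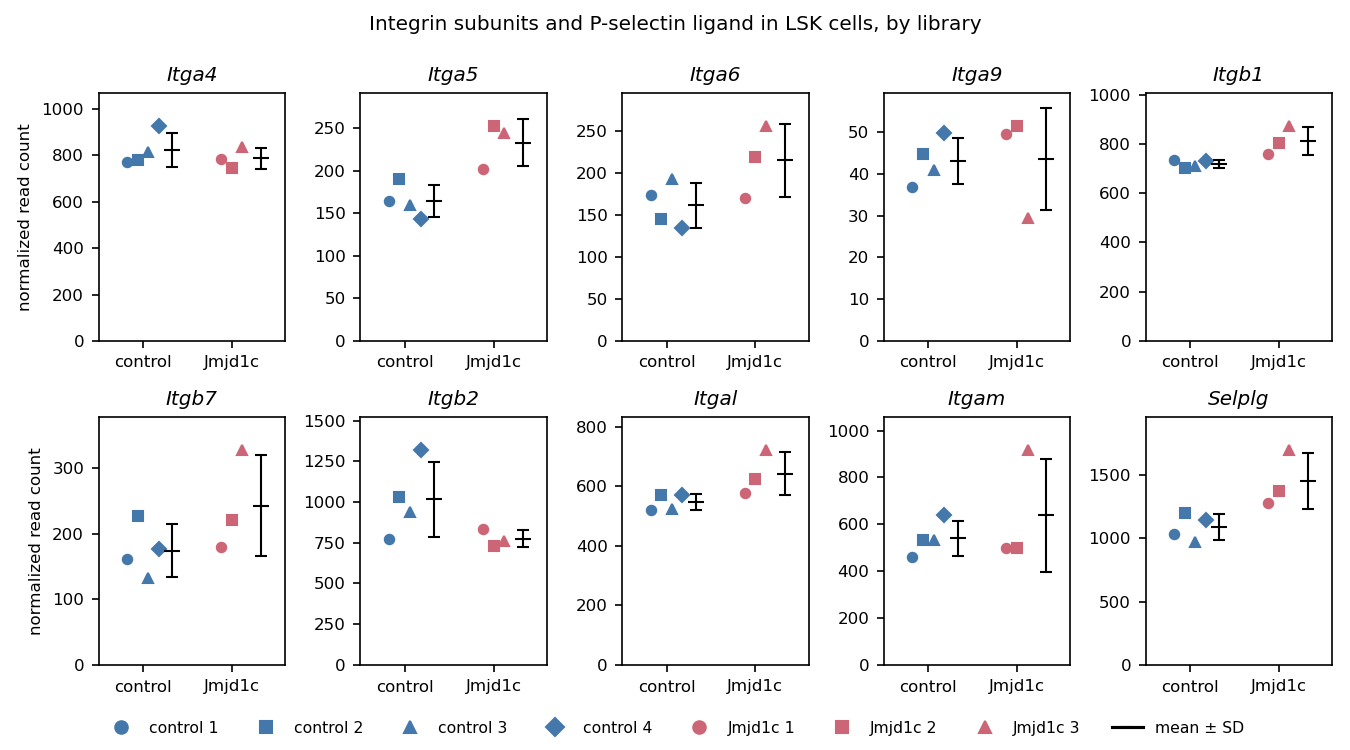
Normalized read count of each of the 10 genes (vertical axes from 0) in 4 control (blue) and 3 Jmjd1c (red) libraries; each point is a library and black bars are the mean ± SD. The points of the groups do not overlap for Itga5, Itgb1, Itgal and Selplg, and Jmjd1c 3 stands above the other Jmjd1c libraries for Itgam (918.2) and Itgb7 (327.6).

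The order of the members was read from normalized read counts per kb of the principal annotated transcript, a level that allows genes to be compared. Selplg was highest in the control libraries at 586 ± 55.1 per kb (SD, n = 4). Itgb2 followed at 343 ± 77.2 per kb and Itgb1 at 189 ± 4.09. The beta chains were thus above the alpha chains with which they pair, except that Itga4 (84.3 ± 7.36 per kb) was not separated from Itgb7 (64.9 ± 14.9 per kb). Among the alpha chains Itgam was at 116 ± 16.1 per kb and Itgal at 105 ± 5.42, with overlapping ranges over the control libraries. Itga5 (37.5 ± 4.35 per kb) and Itga6 (37.4 ± 6.13 per kb) could not be ordered either. Itga9, at 6.13 ± 0.79 per kb and 25 to 60 recovered reads per library, was the lowest. In the Jmjd1c libraries the order of means was the same but for Itga4 and Itgb7, which changed places. With the merged length of all annotated exons in place of the principal transcript, Itgb2 (333 per kb) came before Selplg (254) and Itgb7 (62.8) before Itga4 (58.9), so these orders depend on the length used.

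**Figure D2:**
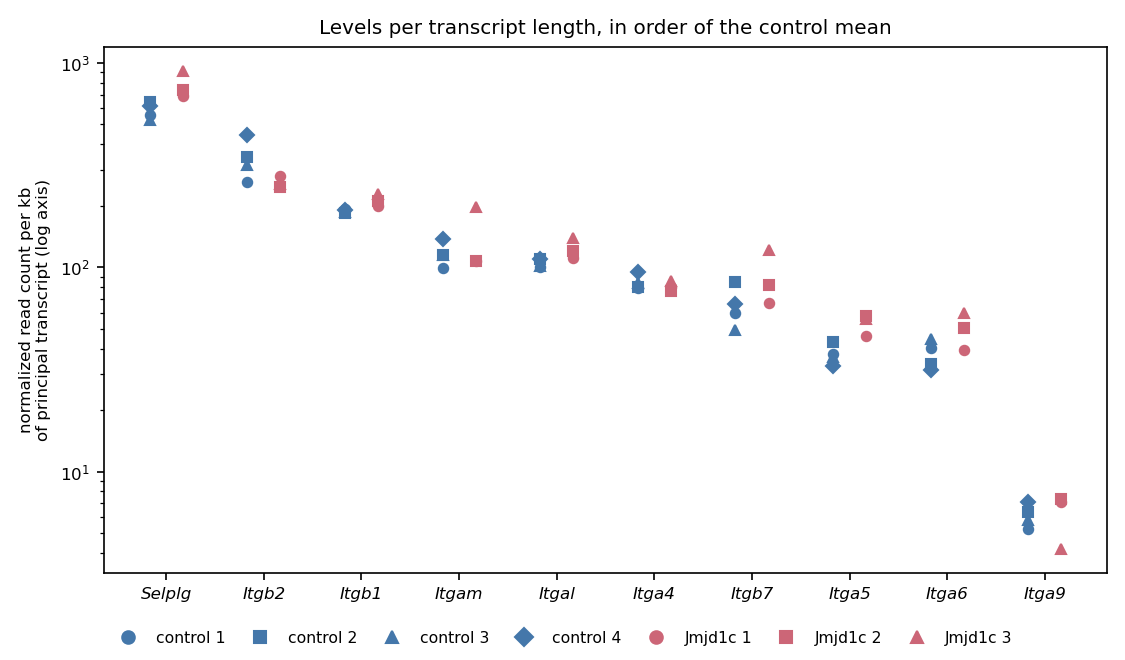
Normalized read count per kb of principal transcript (log axis) for the 10 genes in order of their control mean, each point a library (blue control, red Jmjd1c). Selplg is highest at a control mean of 586 per kb and Itga9 lowest at 6.13 per kb.

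Among the members that pair with beta1, Itga5 differed most. Itga5 encodes the alpha chain of alpha5 beta1, the classical fibronectin receptor (ENSMUSG00000000555; mm10 chromosome 15, 103344286 to 103366763, minus strand). It was at 164.0, 189.5, 159.7 and 143.4 normalized read counts in controls 1 to 4 and at 201.9, 252.5 and 244.2 in Jmjd1c 1 to 3. The lowest Jmjd1c library was thus above the highest control library. The log2 fold change was 0.50 ± 0.12 (SE), a level 1.42 times higher, with a limma adjusted p of 0.0579, just short of the threshold. DESeq2 gave 0.50 with an adjusted p of 0.0233, and limma without Jmjd1c 1 gave 0.60 with 0.0286. It passed in no other setting, and its adjusted p was highest without Jmjd1c 2 (0.44; limma test, adjusted p = 0.260). With each library corrected by splines for the GC content and length of transcripts it was 0.31 (limma test, adjusted p = 0.184); its transcript has 57.3% GC, against a median of 49.4% for tested genes.

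Itgb1, the shared beta chain (ENSMUSG00000025809; chromosome 8, 128685654 to 128733200, plus strand), was narrowly spread. It was at 735.2, 701.2, 712.1 and 729.3 normalized read counts in the controls and 760.5, 803.7 and 873.5 in the Jmjd1c libraries. The groups did not overlap, with Jmjd1c 3 highest, but the difference was small: a log2 fold change of 0.17 ± 0.07 (limma test, adjusted p = 0.193). Itga6, a laminin receptor chain that also marks stem cells (ENSMUSG00000027111; chromosome 2, 71745616 to 71858416, plus strand), was at 173.6, 144.8, 192.3 and 134.7 against 169.6, 218.5 and 256.0. Jmjd1c 1 fell within the control range and the other Jmjd1c libraries above it. Its log2 fold change was 0.40 ± 0.16 (limma test, adjusted p = 0.196), and 0.27 without Jmjd1c 3.

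Itga4, the alpha chain of VLA-4 and a main anchor of progenitors to VCAM-1 and fibronectin (ENSMUSG00000027009; chromosome 2, 79255426 to 79333123, plus strand), showed no such shift. It was at 770.4, 782.1, 814.7 and 927.8 normalized read counts in the controls and 784.4, 744.0 and 834.8 in the Jmjd1c libraries, and the groups overlapped. The log2 fold change was -0.06 ± 0.08 (limma test, adjusted p = 0.700), and it was 0.006 with the GC and length splines. Of its exonic bases, 1124 overlap Cerkl on the opposite strand. The strand setting of the counting is not given in the sources used here, so reads there could be assigned to either gene or lost; Cerkl itself was at 140 ± 13.9 in control and 144 ± 19.4 in Jmjd1c libraries. Itga9, which also pairs with beta1 and binds tenascin and VCAM-1 (ENSMUSG00000039115; chromosome 9, 118606690 to 118901003, plus strand), was at 36.8, 44.7, 40.8 and 49.8 against 49.6, 51.5 and 29.4. Jmjd1c 3 was below all controls and the other Jmjd1c libraries were near or above the highest of them. Its log2 fold change was -0.02 ± 0.23 (limma test, adjusted p = 0.974) and turned to 0.24 without Jmjd1c 3.

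The stretch before the start site is shown for Itga5 and Itgb1, the chains of 1 receptor whose groups did not overlap, and for Itga4, which shares the beta chain and did not shift. Each run is the 250 bases before the RefSeq start, on GRCm38.p6 and on the strand of the gene (chr15:103366792-103367041, minus; chr8:128685404-128685653, plus; chr2:79255176-79255425, plus). Capitals mark GC boxes, the letters GGGCGG on either strand, which Sp-family factors bind.
Itga5: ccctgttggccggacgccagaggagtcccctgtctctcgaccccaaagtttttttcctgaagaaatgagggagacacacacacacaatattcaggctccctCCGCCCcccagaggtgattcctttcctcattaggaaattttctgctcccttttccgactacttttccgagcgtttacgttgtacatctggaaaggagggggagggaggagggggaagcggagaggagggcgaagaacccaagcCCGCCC
Itgb1: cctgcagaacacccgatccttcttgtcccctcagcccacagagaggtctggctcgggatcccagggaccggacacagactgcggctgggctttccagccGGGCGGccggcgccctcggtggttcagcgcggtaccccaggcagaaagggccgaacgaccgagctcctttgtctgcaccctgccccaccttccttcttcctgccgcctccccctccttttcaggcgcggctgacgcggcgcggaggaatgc
Itga4: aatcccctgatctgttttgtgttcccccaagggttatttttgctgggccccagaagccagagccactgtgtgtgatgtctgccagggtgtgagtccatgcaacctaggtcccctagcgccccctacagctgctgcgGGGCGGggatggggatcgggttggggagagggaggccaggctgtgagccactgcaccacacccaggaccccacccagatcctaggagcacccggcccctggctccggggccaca
These stretches held 2, 1 and 1 GC boxes, which 32.7% of the 32851 RefSeq promoter windows of this length hold at least once. Neither a CCAAT box (CCAAT) nor a TATA box (TATAAA) was found in any of the 3, against 33.8% and 12.4% of all windows. The core letters bound by the blood factor PU.1 (GAGGAA) occurred once each before Itga5 and Itgb1 and not before Itga4, against 23.3% of windows. Both strands were searched and no matches of different motifs overlapped. The GC content of the stretches was 55.6% for Itga5, 68.0% for Itgb1 and 64.0% for Itga4. A match describes letters and not a bound site, and no match says nothing of the factor. The RefSeq table held 6 of the 10 members.

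Of the leukocyte chains, Itgb2 was the 1 member with a lower mean in Jmjd1c by more than 0.1 on the log2 scale. Itgb2 encodes CD18, the beta chain of LFA-1 and Mac-1 (ENSMUSG00000000290; chromosome 10, 77530252 to 77565708, plus strand). It was at 774.4, 1034, 939.4 and 1321 normalized read counts in controls 1 to 4 and 834.1, 732.6 and 760.8 in Jmjd1c 1 to 3. Control 4 was highest and control 1 lay among the Jmjd1c libraries, so the groups overlapped. The log2 fold change was -0.37 ± 0.14 (limma test, adjusted p = 0.187), and -0.23 without control 4 (adjusted p = 0.255). Control 4 is also the library with the highest macrophage and monocyte sum, given above. The 7 neutrophil genes summed to 9613 to 12978 in the controls and 6617 to 9571 in the Jmjd1c libraries, and the 5 dendritic cell genes to 6432 to 8600 and 4570 to 6617. Flt3, also one of the stem and progenitor markers used here, made up most of the dendritic cell sum. It was at 5172 to 5956 in the controls and 4039 to 5295 in the Jmjd1c libraries. The groups overlapped for Cd209a, Xcr1 and Itgax, and Siglech had 0 to 7 recovered reads. The part of macrophages, neutrophils and dendritic cells in the Itgb2 values was not tested.

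The alpha partners of CD18 did not have a lower mean in Jmjd1c, though for Itgam this rested on Jmjd1c 3. Itgal, the CD11a chain of LFA-1 that binds ICAM-1 (ENSMUSG00000030830; chromosome 7, 127296260 to 127335138, plus strand), was at 520.0, 570.9, 524.5 and 571.0 in the controls and 578.4, 625.5 and 722.1 in the Jmjd1c libraries. The lowest Jmjd1c library was barely above the highest control. Its log2 fold change was 0.23 ± 0.09 (limma test, adjusted p = 0.179), and 0.14 either without Jmjd1c 3 or with the GC and length splines. Itgam, the CD11b chain of Mac-1, whose protein is one of the lineage markers commonly used to deplete mature cells (ENSMUSG00000030786; chromosome 7, 128062640 to 128118491, plus strand), was at 460.0, 531.0, 532.7 and 641.0 against 499.0, 497.7 and 918.2. Only Jmjd1c 3 stood outside the control range. The log2 fold change was 0.18 ± 0.19 (limma test, adjusted p = 0.623) and turned to -0.11 without Jmjd1c 3. Itgal and Itgam lie 0.728 Mb apart, and Itgam lies beside its relatives Itgax and Itgad, with gaps of 0.011 and 0.036 Mb. In the annotation used here 3450 exonic bases of Itgam also belong to Gm49368 on the same strand, and whether the authors' annotation holds that gene was not tested.

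Itgb7 pairs with alpha4 in the gut-homing receptor alpha4 beta7 (ENSMUSG00000001281; chromosome 15, 102215995 to 102231944, minus strand). It was at 160.8, 226.9, 131.7 and 176.6 in the controls and 179.6, 220.5 and 327.6 in the Jmjd1c libraries. Jmjd1c 1 and 2 were within the control range and Jmjd1c 3 above it. The log2 fold change was 0.46 ± 0.21 (limma test, adjusted p = 0.250), and it was 0.22 without Jmjd1c 3 and 0.29 with the GC and length splines, its transcript having 58.0% GC. Jmjd1c 3 also had the highest sum of 4 plasma cell genes, 28429, against 11026 and 9179 in Jmjd1c 1 and 2 and 16960 to 22854 in the controls. Ighm, at 18316, made up most of that sum, while Jchain (2591) and Igkc (7255) in Jmjd1c 3 lay within the control range. Sdc1, at 266.5 in Jmjd1c 3, lay above every control (175.8 to 230.8). The part of plasma cells in the Itgb7 value was not tested. Itgb7 lies 1.112 Mb from Itga5.

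Selplg came next after Itga5 by its adjusted p, though the log2 difference of Itgb7 was larger (ENSMUSG00000048163; chromosome 5, 113818536 to 113832644, minus strand). PSGL-1 carries the sulfated tyrosines and branched sugars to which P-selectin binds. Selplg was at 1034, 1200, 973.2 and 1140 normalized read counts in controls 1 to 4 and at 1278, 1373 and 1697 in Jmjd1c 1 to 3. All Jmjd1c libraries were above all controls, and Jmjd1c 3 was highest. The log2 fold change was 0.41 ± 0.10, a level 1.33 times higher, with a limma adjusted p of 0.0609, again just short of the threshold. DESeq2 gave 0.41 with an adjusted p of 0.00556, and limma without Jmjd1c 1 gave 0.49 with 0.0297. It passed in no other setting, and its adjusted p was highest without Jmjd1c 2 (0.44; limma test, adjusted p = 0.218). The GC and length splines left it at 0.41 (limma test, adjusted p = 0.0738), and leaving out Jmjd1c 3 gave 0.29.

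**Figure D3:**
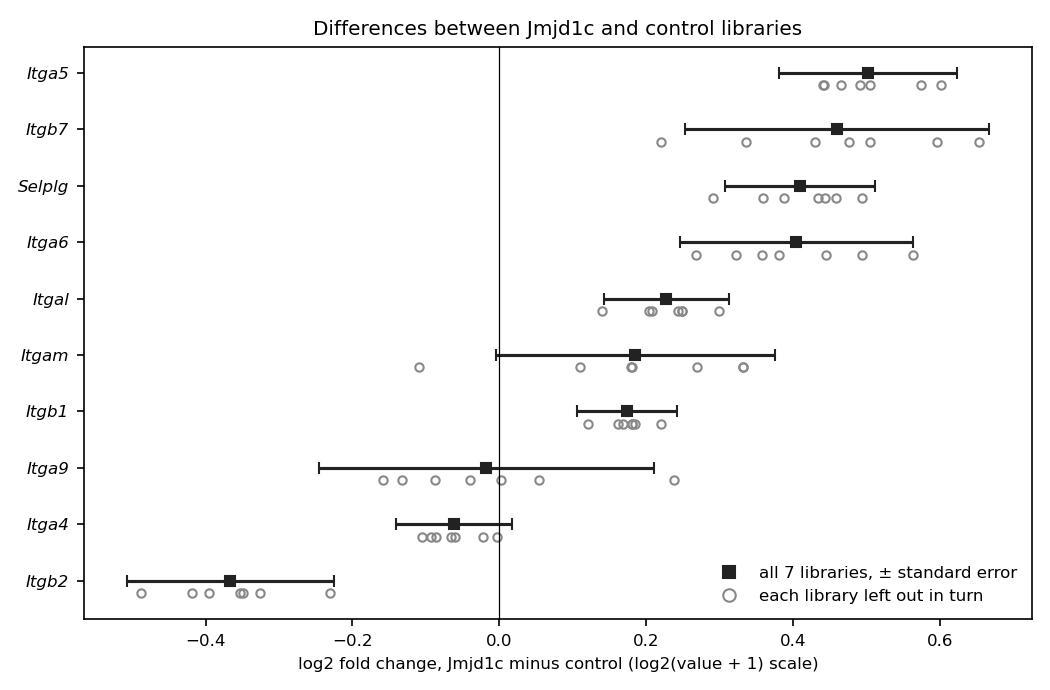
Log2 fold change of each gene, Jmjd1c minus control (horizontal axis, log2(value + 1) scale), with its limma standard error (black) and the same value with each of the 7 libraries left out in turn (open circles). Itga5 keeps values from 0.44 to 0.60, while Itgam and Itga9 have values on both sides of 0.

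Since a receptor needs both chains, the ratio of the alpha to the beta transcript was compared within each library for 7 pairs; a ratio of normalized read counts is free of the library's size factor but not of transcript length. None of the 7 pairs passed after Benjamini-Hochberg adjustment, with a smallest adjusted exact permutation p of 0.133. With 35 splits no exact permutation p can go below 0.0286. A single pair at that floor could not pass after adjustment over 7 pairs, so the lack of passing pairs says little about the ratios. Itgam/Itgb2 was 0.485 to 0.594 in the controls and 0.598, 0.679 and 1.21 in Jmjd1c 1 to 3, without overlap. The log2 difference was 0.55 (two-sided exact permutation p = 0.0286, the smallest possible; adjusted p = 0.133), and 0.24 without Jmjd1c 3. Itgal/Itgb2 was 0.432 to 0.672 in the controls and 0.694 to 0.949 in the Jmjd1c libraries, also without overlap. Its log2 difference was 0.59 (exact permutation p = 0.0571, adjusted p = 0.133). The ratios to Itgb2 share their denominator and are not independent of each other.

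Itga4/Itgb1 was 1.05 to 1.27 in the controls and 0.926 to 1.03 in the Jmjd1c libraries, again without overlap. The log2 difference was -0.24 (exact permutation p = 0.0571, adjusted p = 0.133). Itga5/Itgb1 moved the other way, with a log2 difference of 0.33 and overlapping groups, 0.197 to 0.270 against 0.265 to 0.314 (exact permutation p = 0.0857, adjusted p = 0.150). The log2 differences of Itga4/Itgb7 (-0.52, exact permutation adjusted p = 0.160), Itga6/Itgb1 (0.23, adjusted p = 0.233) and Itga9/Itgb1 (-0.19, adjusted p = 0.657) came with overlapping groups. Without Jmjd1c 3 the Itga4/Itgb7 difference was -0.33 and that of Itga9/Itgb1 0.12, and without control 4 that of Itga6/Itgb1 was 0.14.

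**Figure D4:**
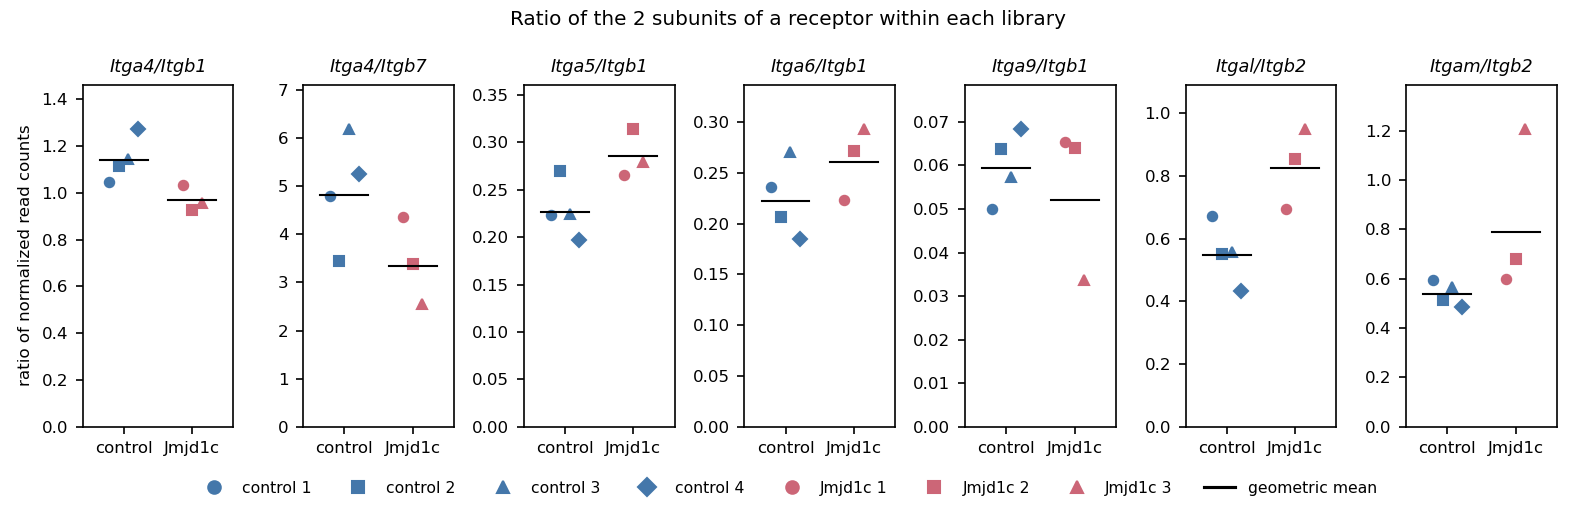
Ratio of the normalized read counts of alpha to beta chain (vertical axes from 0) for 7 receptor pairs, each point a library (blue control, red Jmjd1c), black lines the geometric mean. The groups do not overlap for Itga4/Itgb1, Itgal/Itgb2 and Itgam/Itgb2, and the highest Itgam/Itgb2 point, 1.21, is Jmjd1c 3.

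The remaining genes of the adhesion system were taken from 5 lists with 118 entries, chosen by known role; 1.8% of all tested genes passed, 194 higher and 37 lower, and each count is to be read against that share. Of 20 tested genes for selectin ligands and their glycosylation, 2 rose in limma, 0 fell and 18 did not pass, with a median log2 fold change of 0.10. At an unadjusted p under 0.05 there were 5 higher and 2 lower, against 19.7% of all tested genes. Tpst2, which sulfates tyrosines such as those of PSGL-1, rose by 0.56 ± 0.12, from 284.8, 276.4, 226.1 and 300.8 to 343.4, 394.7 and 466.1 (limma test, adjusted p = 0.0475). B4galt1, which adds the galactose of the selectin-binding sugar, rose by 0.40 ± 0.08, from 352.0, 368.1, 317.0 and 369.0 to 438.6, 471.9 and 480.2 (limma test, adjusted p = 0.0390). With quantile normalization Tpst2 did not pass (0.54; limma test, adjusted p = 0.0525). In both genes every Jmjd1c library lay above every control. Chosen after their values were seen, Gmds, which makes the fucose donor, had 0.44 (limma test, adjusted p = 0.0802). C1galt1c1, the chaperone of the enzyme that extends mucin-type sugars, had -0.38 (limma test, adjusted p = 0.0863), and St3gal6, a sialyltransferase of selectin ligands, -0.45 (adjusted p = 0.118).

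Of 34 tested genes of integrin activation and the adhesion complex, 1 rose, 0 fell and 33 did not pass, near the 1.8% of all tested genes (median 0.08). At an unadjusted p under 0.05 there were 6 higher and 3 lower, against 19.7% of all tested genes. The gene that rose was Actn4, an actinin that links the complex to actin, by 0.34 ± 0.07, from 1061 to 1162 in the controls to 1349, 1409 and 1530 in Jmjd1c 1 to 3 (limma test, adjusted p = 0.0343). Chosen after their values were seen, Tln1, the talin that switches integrins on, had 0.34 (limma test, adjusted p = 0.0579), the paxillin gene Pxn 0.33 (adjusted p = 0.0631) and the zyxin gene Zyx 0.41 (adjusted p = 0.0589). The 3 lower genes were the adaptor genes Skap2, at -0.16 (limma test, adjusted p = 0.179), and Dok1, at -0.21 (adjusted p = 0.204), and the myeloid kinase gene Fgr, at -0.61 (adjusted p = 0.238). Of 11 tested other integrin subunits 1 rose, Itga2b, the CD41 chain of the platelet fibrinogen receptor and a marker of megakaryocytes, by 0.59 (limma test, adjusted p = 0.0374), beside 1.8% of all tested genes that passed (list median 0.07). Its partner Itgb3, chosen after its values were seen, had 0.75 ± 0.26 and did not pass (limma test, adjusted p = 0.153). Jmjd1c 3 was at 162.0 and the other Jmjd1c libraries at 67.9 and 79.3, all above the controls (45.5 to 65.6). The 5 other megakaryocyte and platelet markers summed to 315 to 502 in the controls and 301 to 453 in the Jmjd1c libraries, so the groups overlapped without Itga2b. Pf4 made up most of that sum, at 210.0 to 373.4 in the controls and 197.8 to 292.4 in the Jmjd1c libraries. The groups also overlapped for Ppbp, Gp9 and Gp1ba, and Gp1bb was near 0 (0 to 1 recovered reads).

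Of 14 tested integrin ligands 1 fell, Fn1, the fibronectin that alpha4 beta1 and alpha5 beta1 bind, by 1.11 ± 0.18, from 160.0, 199.1, 146.9 and 149.5 to 86.9, 86.6 and 55.2 (limma test, adjusted p = 0.0317). The ligand gene fell to levels below every control library while its receptor chain Itga5 had the higher values given above. The other 13 ligand genes did not pass, and the median of the list was 0.14, with 1.8% of all tested genes passing. At an unadjusted p under 0.05 there were 1 higher, Emilin1, and 2 lower, Fn1 and C3, against 19.7% of all tested genes. C3, chosen after its values were seen, had -0.33, with every Jmjd1c library below every control (limma test, adjusted p = 0.0994). None of 10 tested tetraspanins and lateral partners passed in limma or edgeR, and 0 in DESeq2 (median -0.09). At an unadjusted p under 0.05 there were 5, 1 higher and 4 lower, against 19.7% of all tested genes. The smallest p-values there were those of the tetraspanin genes Cd37 (-0.21; limma test, adjusted p = 0.126) and Cd63 (-0.18; adjusted p = 0.145). With the GC and length splines Cd37 had -0.38 and did not pass (limma test, adjusted p = 0.0624), while Cd63 had -0.38 and passed (adjusted p = 0.0468).

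**Figure D5:**
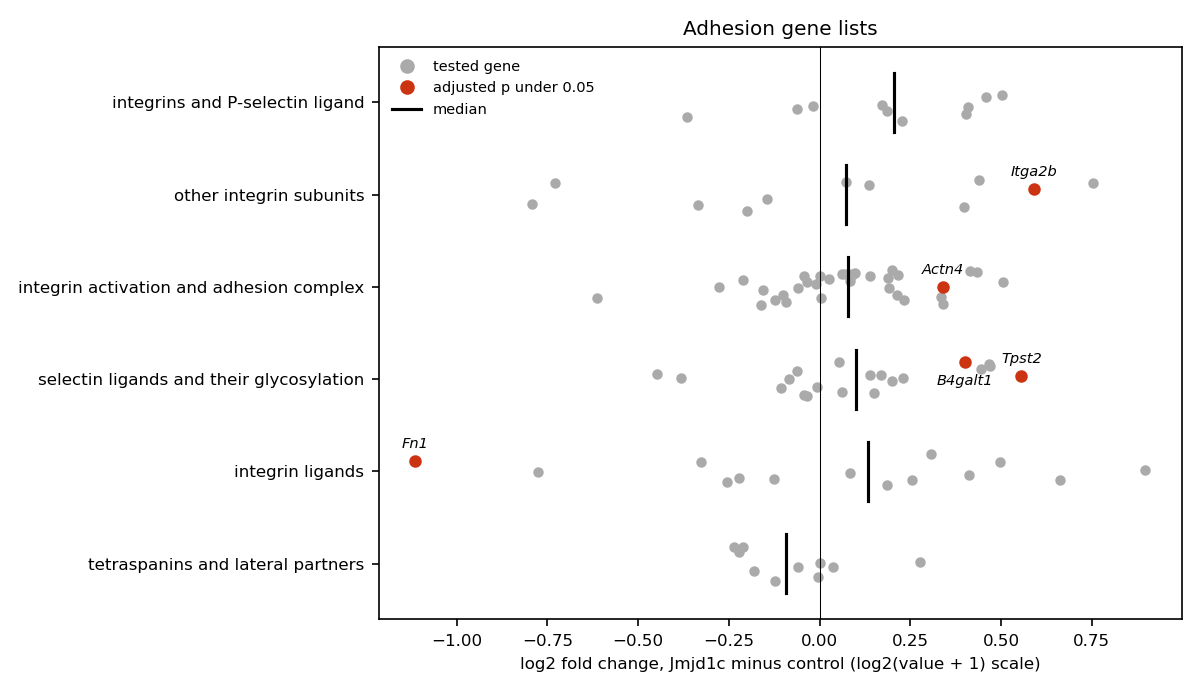
Log2 fold changes, Jmjd1c minus control (horizontal axis, log2(value + 1) scale), of the tested genes of the 10 members and the 5 other adhesion lists; red points passed the adjusted p threshold in limma and black lines are medians. The members' median lies at 0.21 with no red point, and the 5 red points are Itga2b, Actn4, Tpst2, B4galt1 and Fn1.

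The calls of these 5 genes depended on single libraries, while their folds kept their direction. The calls of Itga2b, Actn4, Tpst2 and B4galt1 held without control 4 and without Jmjd1c 1 and were lost without each of the other libraries (limma test, adjusted p up to 0.207, 0.176, 0.212 and 0.207). With the GC and length splines Itga2b had 0.37, Actn4 0.19, Tpst2 0.35 and B4galt1 0.39, none of which passed (limma test, adjusted p = 0.0963, 0.143, 0.114 and 0.0566). Fn1 fell by 1.22 after that correction and passed (limma test, adjusted p = 0.0235), and its call was lost without control 2, control 3, Jmjd1c 2 or Jmjd1c 3. Without each library in turn Itga2b had 0.50 to 0.75, Actn4 0.29 to 0.38, Tpst2 0.44 to 0.66, B4galt1 0.35 to 0.44 and Fn1 -1.22 to -0.90. The count over all genes fell from 231 to 3 without control 2, control 3 or Jmjd1c 2, to 9 without Jmjd1c 3 and to 68 without control 1, so the lost calls were not particular to these genes.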

How the data were processed

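Bulk RNA-seq of sorted LSK cells gave 7 libraries, 4 control and 3 Jmjd1c. RNA was taken with Trizol and amplified with a SMARTer ultra-low-input kit, per the labels' protocols. Trim Galore 0.2.8, STAR, HTSeq 0.6.1p1, DESeq 1.18.0 and mm10 are named, with no role or order, per the submitters' processing notes; annotation, strand setting and filters were not given in the sources used here. The authors deposited 1 table of gene signal values: in each column 100% of values above 0 were whole multiples of the smallest, within 0.01 of a read, as read counts divided by a size factor are, and the recovered reads served edgeR (233 genes called) and DESeq2 (590).

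The members and lists were chosen with earlier results of these data known. Symbols matched 37607 of 39179 IDs; positions and lengths are those of GENCODE M21 on GRCm38, the assembly of mm10, and promoters are from RefSeq. The main test was limma-trend (limma 3.58.1, R 4.3.3) on log2(value + 1) for genes at 10 or more in at least 3 libraries, without covariates, with Benjamini-Hochberg adjustment and a threshold of 0.05. The steps were tested on simulated data. Errors beside means are SDs and beside fold changes standard errors.

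Genes named are the 10 members, Jmjd1c, from each list the genes that passed or else the pair with the smallest p-values, and markers; others are said to be chosen after their values were seen. Alternatives were pseudocounts of 0.5 and 10, no filter and a filter at 50, TMM scaling, quantile normalization, no intensity trend, a block on replicate number, edgeR 4.0.16, DESeq2 1.42.0, splines on transcript GC content and length in each library, and leaving out each library. No library pair of a group agreed within sampling noise (chi-square per degree of freedom 3.24 to 15.2, with the highest values in the pairs with control 4).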

Additional observations from a re-analysis of the deposited data

Results flagged for a closer look

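The summed level of the 10 macrophage and monocyte genes in control 4, 13490 normalized read counts, stood apart from the 3652 to 5236 of the other control libraries by 0.839 of the group's range, above the critical value for 4 samples. It was the only departure among 36 groups of control values checked in this way. Chance gives about 1 in 20 groups, so by this count 1 departure among 36 cannot be told from chance. Over all tested genes control 4 differed from controls 1 to 3 with a chi-square per degree of freedom of 15.25, 8.11 and 9.37. Among controls 1 to 3 the values were 3.24 to 4.23. The cause was not tested. Itgb2 was also highest in control 4 (1321).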

How the results depend on the processing

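The count of members that passed was 0 in all 7 libraries and under 10 of 11 other settings, and 2 with DESeq2; a filter at 50 left Itga9 untested; without each library in turn it was 0 to 2. The count over all genes was 231, but 0 without the intensity trend (2213 at an unadjusted p under 0.05), 83 with the GC and length splines, 590 with DESeq2, and 3 to 624 without each library. Leaving out a library gave 0 to 1 calls among other integrin subunits, 0 to 4 in integrin activation and the adhesion complex, 0 to 2 among selectin ligands, 0 to 2 among integrin ligands and 0 throughout among tetraspanins. Jmjd1c kept -0.89 without the intensity trend but did not pass (limma test, adjusted p = 0.117). Itga4 had 0.006 with the GC and length splines. Itga9 had 0.027 with edgeR and 0.024 with DESeq2, and -0.16 to 0.24 without each library. Itgam had -0.11 to 0.33, and the Itga9/Itgb1 log2 ratio difference ran from -0.36 to 0.12. The other 8 members kept their direction without each library. Itga2b, Actn4, Tpst2, B4galt1 and Fn1 did not pass without the intensity trend (limma test, adjusted p = 0.147 to 0.157). The causes were not tested. Without a library the exact test of a ratio cannot go below 0.0667, so those p-values say nothing about stability. Itga9 had the fewest reads of the members, 25 to 60 per library.

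Same-numbered libraries did not deviate together (correlations over genes of -0.152, -0.002 and 0.017), so the numbers were not taken to pair them. With the replicate block 14 genes passed (7 higher, 7 lower), 0 members, and 0 genes in each of the 5 lists, so those 5 calls were lost; the block leaves out control 4 in effect and gave Itga9 0.054. For the ratios an exact permutation test over 3 pairs cannot go below 0.25.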

Other observations

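Selp and Vwf, chosen after their values were seen, were highest in Jmjd1c 3. Selp, which encodes P-selectin, the ligand of PSGL-1, was at 151.5 normalized read counts in Jmjd1c 3, against 71.2 and 53.6 in Jmjd1c 1 and 2 and 44.8 to 70.0 in the controls. Vwf, a ligand of platelet receptors, was at 82.2 in Jmjd1c 3, against 38.1 and 48.4 and at most 62.9 in the controls. The platelet markers Pf4 (292.4) and Gp9 (85.7) in Jmjd1c 3 lay within the control range. Ppbp (24.7), Gp1ba (50.5) and Itga2b (460.3) in Jmjd1c 3 lay above every control (at most 19.3, 37.6 and 293.7). Ppbp had only 10 to 21 recovered reads per library. Neither Selp nor Vwf passed in limma (adjusted p = 0.411 for Selp and 0.574 for Vwf). Emilin1, an extracellular matrix protein that alpha4 beta1 binds, was at 308.6, 487.4 and 697.4 in Jmjd1c 1 to 3 and 194.1 to 357.2 in the controls, a log2 difference of 0.90 (limma test, adjusted p = 0.0904).

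Basophil and mast cell markers, 5 genes, summed to 5605 to 8679 in the controls and 2151 to 4564 in the Jmjd1c libraries, and 4 B cell markers to 436.8 to 504.5 and 376.1 to 397.2. Prss34 made up most of the first sum, at 4421 to 6828 in the controls and 1601 to 3409 in the Jmjd1c libraries (limma test, adjusted p = 0.0410). Mcpt8 was also lower without overlap, while the groups overlapped for Fcer1a, Cpa3 and Ms4a2. Cd79b made up most of the B cell sum. Members that basophils, mast cells and B cells also carry, among them Itga4, Itgb2 and Itgal, were not separated by cell type here.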
